A study of Mus musculus with 4 samples.

Results

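The 7 genes described here, Aqp5, Aqp3, Kcnma1, Lrrc26, Ano1, Slc12a2 and Cldn10, encode water and ion transport proteins of exocrine glands and of surface epithelium. They were taken by symbol from 32245 gene symbols counted in gingiva (gum) of mice. All 7 had UMIs (unique molecular identifiers, each counting 1 captured RNA molecule) in all 4 libraries. Single cells were released from gum excised around the upper teeth and made into droplet libraries of 4 groups, with 1 library each. The groups were named healthy, metformin, disease, and disease plus metformin. The series asks how this glucose-lowering drug acts on the gingiva as a way to prevent periodontal disease. The sources used here do not give strain, age, dose, the way disease was made or the number of mice per library. No condition had a replicate, so conditions were not tested against each other. All intervals on counts reflect counting error alone.

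Salivary fluid is made in steps that these proteins carry out together. The cotransporter Slc12a2 loads chloride into the cell across its base, calcium opens the chloride channel Ano1 at the lumen, sodium follows between cells through tight junctions, and water crosses the water channel Aqp5. Large-conductance potassium channels built from Kcnma1 secrete potassium, and the auxiliary protein Lrrc26 lets them open at lower voltage and calcium. Cldn10 is a claudin that forms ion-selective pores in tight junctions. Aqp3 passes water and glycerol, and is the water channel of skin and oral keratinocytes.

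Of 8295 deposited barcodes, 7134 were kept, and the libraries held 12507787 to 22333858 UMIs in total. Barcodes were sorted into classes by the share of UMIs from marker lists that held none of the 7 genes. The gland class, called by gland keratins and regulators such as Krt8, Krt18, Agr2 and Spdef or by secreted products, held 1517 barcodes (348 healthy, 291 metformin, 240 disease, 638 disease plus metformin). The keratinocyte class held 3337 barcodes (651, 1110, 988 and 588 in the same order). A further 969 barcodes carried both sets of markers and were kept apart as mixed. They numbered 94 in the healthy, 680 in the metformin, 10 in the disease and 185 in the disease plus metformin library. No doublet caller was run, and 8 barcodes occurred in more than 1 library. Gland barcodes were deeper, with a median of 7039 UMIs against 1684 in keratinocytes. Keratinocyte markers made up 0.0206% of gland UMIs and 2.98% of keratinocyte UMIs in the healthy library.

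Aqp3 had less RNA in gland than in keratinocyte barcodes, and the other 6 genes had more. Levels are given as CPM, the UMIs of a gene per 1000000 UMIs summed over the barcodes of a class in a library. The 2 classes were compared on these sums with edgeR's quasi-likelihood test, with library as a block. The p-values therefore measure how steadily these 2 classes differ over 4 libraries of different condition. The test draws the spread of each gene towards that of other genes. Of 11975 genes tested, 36.7% were called higher in gland and 37.8% lower, so a call alone says little in this comparison, and the sizes are the result. The median log2 fold change was -0.04 over all tested genes and 6.74 over the 7.

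Among the water channels, Aqp5 stood at 1017 CPM in healthy, 1194 in metformin, 1188 in disease and 1391 in disease plus metformin gland barcodes. In keratinocytes the same libraries gave 2.96, 5.31, 3.19 and 3.83 CPM. The ranges were far apart, with a log2 fold change of 8.53 (standard error 0.20, adjusted p = 1.2e-09). Aqp5 RNA was found in 79.9% of gland and 2.52% of keratinocyte barcodes. In leukocytes, which should lack it, it was found in 5.22%, and in 0 to 11.4% by library. Leukocytes were deeper, with a median of 3294 UMIs against 1684 in keratinocytes, so these shares are not at like depth. Whether the keratinocyte share is background was not tested.

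Aqp3 was the reverse of Aqp5. Keratinocytes held 321 CPM in healthy, 437 in metformin, 328 in disease and 505 in disease plus metformin. Gland barcodes held 0.576, 5.67, 0.740 and 1.94 CPM, from 3, 33, 3 and 14 UMIs. Every keratinocyte value was above every gland value, with a log2 fold change of -7.20 for gland against keratinocyte (standard error 0.28, adjusted p = 1.5e-08). Of 1517 gland barcodes, 1180 held Aqp5 RNA without Aqp3, 8 held Aqp3 alone, and 32 held both. Of 3337 keratinocyte barcodes, 31 held Aqp5 alone, 1646 Aqp3 alone, and 53 both. Barcodes with both made up 2.11% of gland, 1.59% of keratinocyte and 10.9% of mixed barcodes, and the last class is defined by holding markers of both.

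The potassium channel gene Kcnma1 stood at 319, 229, 244 and 431 CPM in gland barcodes of the healthy, metformin, disease, and disease plus metformin libraries. In keratinocytes it stood at 1.37, 3.90, 3.83 and 3.24 CPM. The lowest gland value was far above the highest keratinocyte value (log2 fold change 6.74, standard error 0.28, adjusted p = 2.1e-08). Its partner Lrrc26 stood at 463, 490, 408 and 653 CPM in gland, against 2.05, 1.90, 1.44 and 3.54 CPM in keratinocytes (log2 fold change 8.17, standard error 0.14, adjusted p = 6.7e-10). Both RNAs were found together in 781 gland barcodes, Kcnma1 alone in 117, Lrrc26 alone in 298 and neither in 321. In keratinocytes 5 of 3337 barcodes held both.

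Ano1 and Slc12a2, which move chloride, were less restricted to gland. Ano1 stood at 49.9, 47.0, 48.6 and 54.3 CPM in gland and at 15.7, 12.8, 15.8 and 9.73 CPM in keratinocytes (log2 fold change 2.19, standard error 0.14, adjusted p = 4.5e-07). Slc12a2 stood at 340, 324, 269 and 327 CPM in gland and at 114, 87.3, 151 and 111 CPM in keratinocytes (log2 fold change 1.80, standard error 0.15, adjusted p = 2.9e-06). For both genes the 4 gland values lay above the 4 keratinocyte values, by far less than for the other genes higher in gland. Slc12a2 lies on chromosome 18 between 57878678 and 57946821 of GRCm38.

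The claudin gene Cldn10 stood at 957 CPM in healthy, 1183 in metformin, 1113 in disease and 1302 in disease plus metformin gland barcodes. Keratinocytes held 2.96, 4.60, 3.51 and 9.44 CPM. The classes did not overlap (log2 fold change 8.20, standard error 0.22, adjusted p = 2.0e-09).

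**Figure D1:**
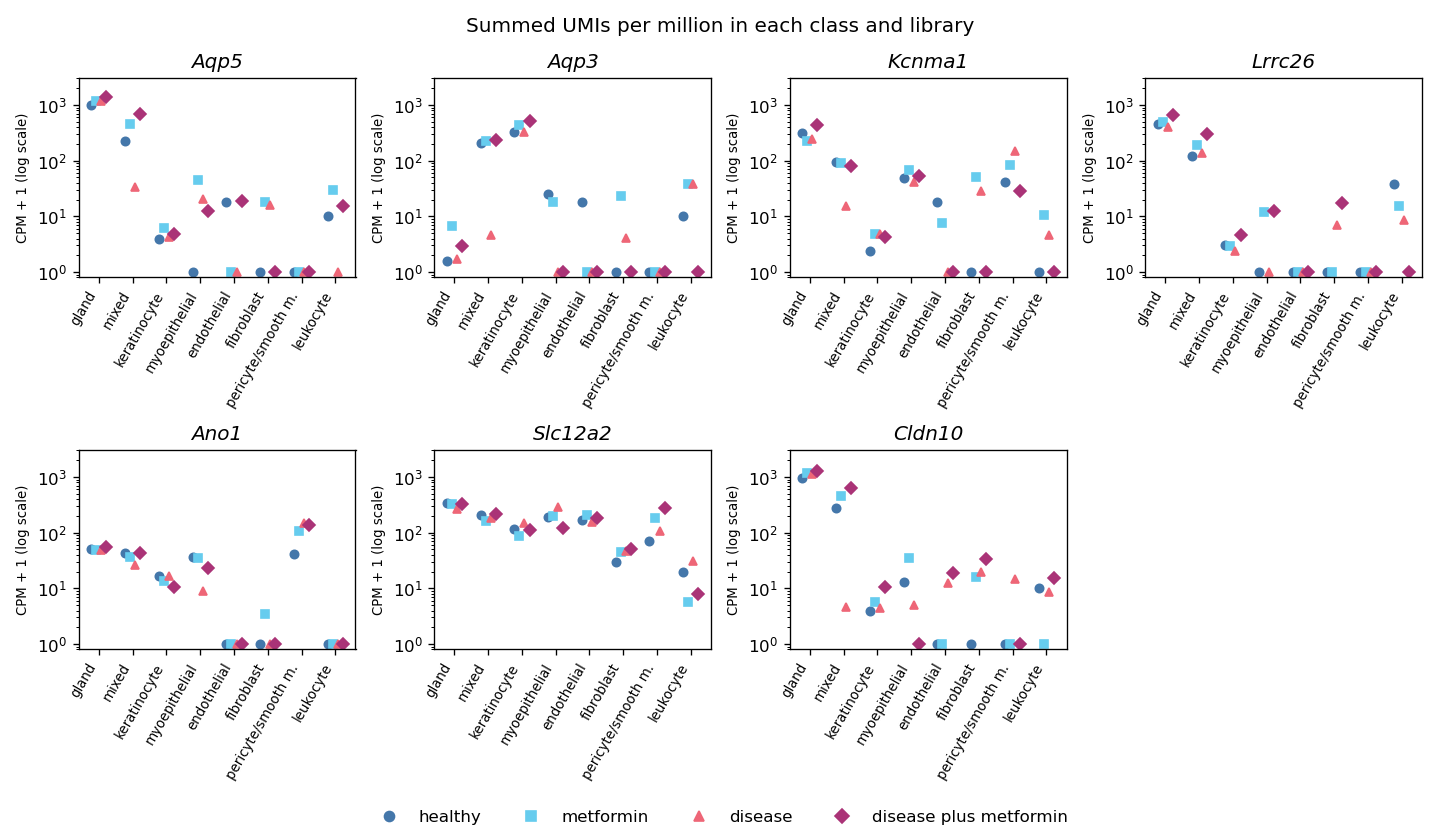
Level of each gene in 8 classes, as CPM + 1 on a log axis, with 1 point per library (colours and shapes mark the 4 groups). Aqp5, Cldn10, Lrrc26 and Kcnma1 are highest in gland, Aqp3 in keratinocytes, and Slc12a2 and Ano1 are also found in other classes. The stromal and leukocyte classes hold 7 to 66 barcodes per library.

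Outside the 2 large classes, Slc12a2 was found in every class. Endothelial barcodes held 171 CPM in healthy, 203 in metformin, 152 in disease and 182 in disease plus metformin. Myoepithelial barcodes, the contractile cells around gland units, held 192, 196, 291 and 119 CPM. Of these 8 values, 119 CPM lay within the keratinocyte range of 87.3 to 151 CPM and the other 7 lay above it. Ano1 reached 41.0, 107, 148 and 137 CPM in the pericyte and smooth muscle class, from 3, 13, 11 and 5 UMIs in 50 barcodes. Kcnma1 stood at 41.0, 82.3, 148 and 27.4 CPM there, and both channels are known in smooth muscle. Endothelial and leukocyte barcodes held no Ano1 UMI, which allows up to 3 UMIs in each class.

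Sequence just before the transcription start is shown for Lrrc26 and Cldn10, both high in gland, and for Aqp3, which had the opposite pattern. Each line is the 250 bases before the RefSeq start in GRCm38.p6, written 5′ to 3′ on the strand of the gene. These windows overlapped no annotated exon of the GENCODE M21 annotation. Lrrc26 is at chr2:25289661-25289910 on the plus strand, Cldn10 (the first of 2 starts) at chr14:118787621-118787870 on the plus strand, and Aqp3 at chr4:41098184-41098433 on the minus strand. Capitals mark matches on either strand to TATAAA (the TATA box), CAGCTG (an E-box), ACAAT (the core bound by SOX factors) or ACGT (the core bound by many bZIP factors).
Lrrc26: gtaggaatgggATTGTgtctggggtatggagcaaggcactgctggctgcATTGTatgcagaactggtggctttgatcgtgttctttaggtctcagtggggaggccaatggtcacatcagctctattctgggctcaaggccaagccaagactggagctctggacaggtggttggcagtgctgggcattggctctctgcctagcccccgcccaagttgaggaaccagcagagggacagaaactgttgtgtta
Cldn10: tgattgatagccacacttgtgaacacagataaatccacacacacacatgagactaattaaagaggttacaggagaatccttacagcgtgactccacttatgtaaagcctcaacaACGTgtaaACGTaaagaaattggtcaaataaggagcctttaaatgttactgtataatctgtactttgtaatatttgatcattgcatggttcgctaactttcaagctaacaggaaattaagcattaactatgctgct
Aqp3: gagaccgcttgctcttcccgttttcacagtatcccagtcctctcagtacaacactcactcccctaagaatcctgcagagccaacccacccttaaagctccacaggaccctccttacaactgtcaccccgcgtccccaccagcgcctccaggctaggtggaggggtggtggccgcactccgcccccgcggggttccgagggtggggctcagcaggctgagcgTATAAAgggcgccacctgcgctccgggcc
The Aqp3 window held 1 TATAAA, whose first base lies 29 bases before the start, a motif found in 12.4% of 32851 windows of this length. The Lrrc26 window held 2 matches to ACAAT, found in 27.7% of all windows, and the Cldn10 window 2 matches to ACGT, found in 26.9%. CAGCTG, found in 13.0% of windows, was in none of the 3. Of windows not shown, that of the second Cldn10 start held 1 CAGCTG, and that of Aqp5 held 2 matches to ACGT. Which Cldn10 start these cells use was not tested. Lrrc26 and Cldn10 shared no searched motif. Windows were read for 6 of the 7 genes, and Slc12a2 was not among those looked up. A match is a description of letters and not evidence of binding.

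Gland barcodes were split into subtypes, and each was compared with all other gland barcodes. For the mucous-type and Ptprn2-rich subtypes the other barcodes include the other of these 2, so their tests are not independent and opposite signs are partly built in. The mucous-type differences also depended on the gate, as given below. Mucous-type barcodes (863, with mucous products such as Spink4, Wfdc12 and Muc5b) had higher Aqp5, Cldn10 and Lrrc26. Barcodes rich in Ptprn2 (243, called by the RNA of this secretory-granule protein) had higher Kcnma1, Slc12a2 and Ano1 and lower Aqp5, Cldn10 and Lrrc26. Aqp3 did not pass the filter on low counts in either comparison, so 6 of the 7 genes were tested. In the test of Ptprn2-rich against other gland barcodes, 27.2% of 9437 genes were called higher and 27.7% lower, so the shares of 3 higher and 3 lower of 6 are not far from the background. The median log2 fold change was 0.00 over all tested genes and -0.29 over the 6.

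Kcnma1 stood at 965 CPM in healthy, 680 in metformin, 577 in disease and 958 in disease plus metformin Ptprn2-rich barcodes. Mucous-type barcodes of the same libraries held 251, 200, 175 and 343 CPM. The lowest Ptprn2-rich value was above the highest mucous-type value, and the log2 fold change against all other gland barcodes was 1.53 (standard error 0.15, adjusted p = 7.2e-09). With every barcode thinned to 1000 UMIs, Kcnma1 RNA was found in 52.5% of Ptprn2-rich and 23.5% of mucous-type barcodes, against 97.1% and 80.2% of the same barcodes without thinning. This left out 1 of 243 and 181 of 863 shallower barcodes. No leukocyte barcode held Kcnma1 after thinning.

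Lrrc26, the subunit that serves the Kcnma1 channel, went the other way. Ptprn2-rich barcodes held 192, 237, 202 and 472 CPM, and mucous-type barcodes 611, 514, 471 and 732 CPM. Within each library the mucous-type value was higher, while the ranges just met, since 472 CPM in the disease plus metformin Ptprn2-rich barcodes exceeded 471 CPM in the disease mucous-type barcodes. The log2 fold change of Ptprn2-rich against other gland was -1.35 (standard error 0.17, adjusted p = 2.0e-07). Cldn10 had log2 fold change -1.42 (standard error 0.17, adjusted p = 1.1e-07), with 399, 587, 518 and 828 CPM in Ptprn2-rich and 1223, 1273, 1319 and 1479 CPM in mucous-type barcodes. Aqp5 had log2 fold change -1.02 (standard error 0.16, adjusted p = 7.8e-06), with 606, 800, 714 and 1007 CPM against 1264, 1304, 1401 and 1587 CPM. Neither gene's ranges overlapped between these subtypes.

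Slc12a2 stood at 551, 605, 380 and 486 CPM in Ptprn2-rich and 381, 307, 220 and 311 CPM in mucous-type barcodes. Each library had the higher value in the Ptprn2-rich barcodes, and the ranges touched at 380 and 381 CPM. Its log2 fold change was 0.49 (standard error 0.14, adjusted p = 0.0043). The call was lost with stricter gates (adjusted p = 0.53) and without the filter on low counts (adjusted p = 0.081). Ano1 was 0.43 higher (standard error 0.16, adjusted p = 0.025), from 78.2, 50.9, 81.9 and 83.9 CPM against 47.1, 44.8, 41.2 and 50.9 CPM. The Ano1 call was lost with stricter gates (adjusted p = 0.19), without the filter on low counts (adjusted p = 0.19), with DESeq2 (adjusted p = 0.096), without the disease library (adjusted p = 0.17) and without the disease plus metformin library (adjusted p = 0.12).

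**Figure D2:**
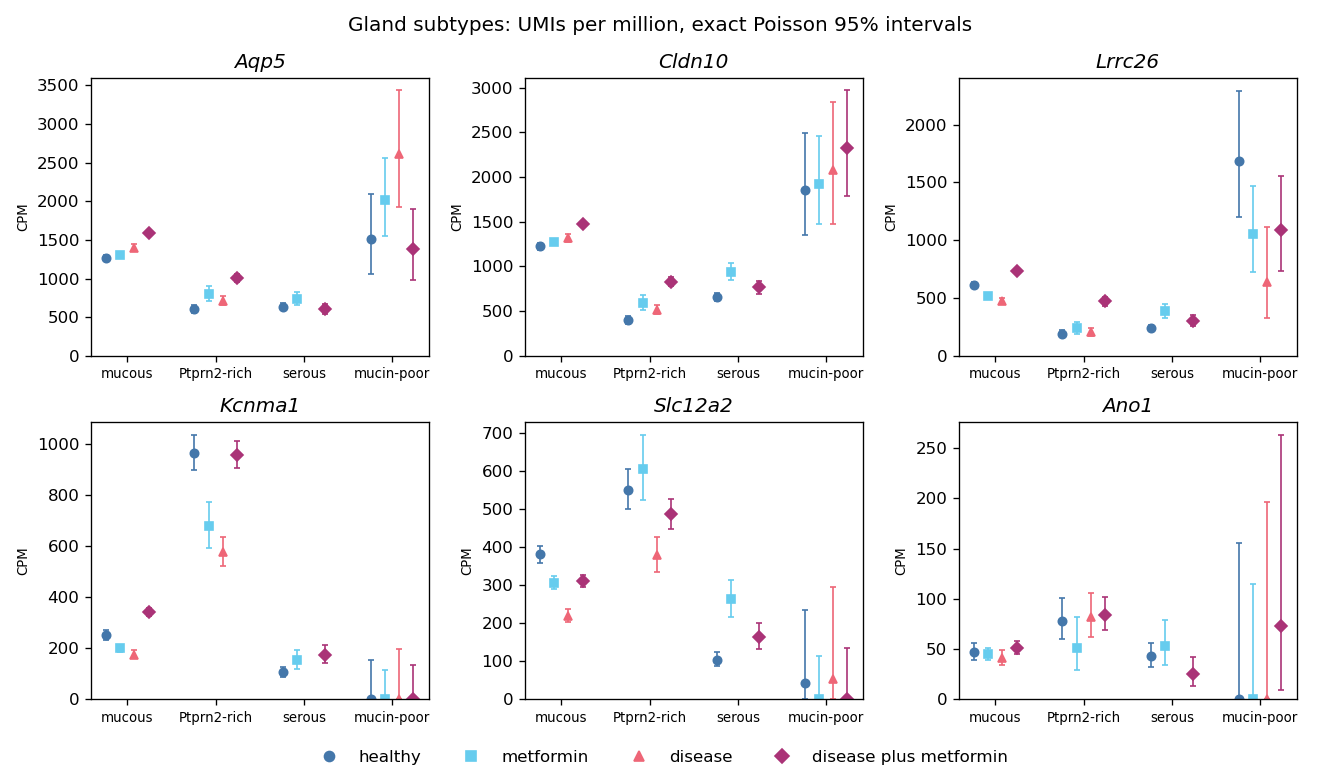
CPM of 6 genes in 4 gland subtypes, with 1 point per library and exact Poisson 95% intervals (counting error only). Kcnma1 is highest in Ptprn2-rich barcodes in every library, where Lrrc26 and Cldn10 are below their mucous-type values. The serous class of the disease library (3 barcodes) is left out.

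Ptprn2-rich barcodes also differed in RNA content. Malat1, a nuclear RNA, made up 4.92% of their UMIs against 2.14% in mucous-type barcodes, and mitochondrial RNA 6.76% against 3.64%. Genes called higher in Ptprn2-rich barcodes had a median genomic length of 87.6 kb, those called lower 9.72 kb, and all tested genes 26.6 kb. The genes follow this order among themselves in part. Kcnma1 spans 725 kb, Ano1 163 kb and Slc12a2 68.1 kb, while Aqp5 spans 4.05 kb and Lrrc26 1.27 kb, but Cldn10, which was lower, spans 87.6 kb. Whether reads from introns were counted is not given in the sources used here. Among barcodes with at least 3% Malat1, Kcnma1 stood at 938 CPM in 197 Ptprn2-rich and 394 CPM in 251 other gland barcodes. Lrrc26 stood at 244 and 465 CPM there, Slc12a2 at 523 and 393 CPM, Aqp5 at 731 and 1195 CPM, and Cldn10 at 511 and 1069 CPM. Malat1 made up 5.88% and 4.5% of UMIs in these barcodes. Ano1 stood at 81.4 and 65.4 CPM in them, but not with 1 direction over libraries. Its Ptprn2-rich value was higher in healthy (79.4 against 62.8 CPM) and in disease (83.5 against 39.9 CPM). It was lower in metformin (46.8 against 65.7 CPM) and nearly equal in disease plus metformin (91.1 against 92.3 CPM). From 1 to 3% Malat1, Kcnma1 stood at 563 CPM in 43 Ptprn2-rich and 242 CPM in 426 other gland barcodes. Slc12a2 stood at 406 and 298 CPM there, Aqp5 at 1058 and 1398 CPM, and Cldn10 at 954 and 1368 CPM. Lrrc26, at 519 and 615 CPM, differed less there than at 3% or more, and Ano1 stood at 68.9 and 45.6 CPM. Of the 43 Ptprn2-rich barcodes, 22 came from the disease plus metformin library. In that library Kcnma1 stood at 550 CPM in these and 330 CPM in other gland barcodes. Among other gland barcodes, 3 of the genes were higher where the Malat1 share was higher. From below 1%, through 1 to 3%, to at least 3%, Kcnma1 stood at 118, 242 and 394 CPM, Slc12a2 at 215, 298 and 393 CPM, and Ano1 at 34.0, 45.6 and 65.4 CPM. In the disease library Ano1 stood at 26.1, 49.5 and 39.9 CPM, so its steady rise did not hold in every library. The part of RNA content and of gene length in the differences was not tested.

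Against all other gland barcodes, the mucous-type class had 3 of 6 genes higher and 3 lower, beside 17.4% and 21.9% of 9664 tested genes. Aqp5 was 0.71 higher (standard error 0.13), Cldn10 0.72 higher (standard error 0.13) and Lrrc26 0.64 higher (standard error 0.11) on the log2 scale. Kcnma1 was lower, at -0.95 (standard error 0.10), as were Ano1 at -0.44 and Slc12a2 at -0.31. The comparison class is made up in part of the Ptprn2-rich barcodes just described. With gates 2-fold stricter the directions of 5 of these 6 genes turned, and Lrrc26 was then lower at -0.35 (adjusted p = 0.020), so the mucous-type result depends on where the gate is set. DESeq2 called only Kcnma1 lower. Serous-type barcodes (187) had no gene called in 3 libraries, where 0.692% of 9540 genes were called higher and 0.178% lower. At an unadjusted p below 0.05 edgeR had 2 genes, Kcnma1 with a log2 fold change of -0.47 and Aqp3 with 2.62, and DESeq2 called neither after adjustment. The Aqp3 value fell to 0.37 without the disease plus metformin library. Kcnma1 was called lower (adjusted p = 0.048) with classes taken from clusters. The median depth of serous-type barcodes was 1566 UMIs, and 145 of them lay in clusters given no subtype. Over all gland barcodes, 192 lay in clusters classed as mixed. A mixed cluster of 416 barcodes was led by the serous products Dcpp3, Dcpp2 and Bpifa2, and held Aqp3 at 141 CPM.

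A small class of 84 barcodes had Smgc, Tff2 or Muc19 RNA but little of the mucous list. In these mucin-poor barcodes Aqp5, Cldn10 and Lrrc26 were present while Kcnma1 and Slc12a2 were nearly missing. Lrrc26 stood at 1684 CPM in healthy, 1053 in metformin, 638 in disease and 1091 in disease plus metformin. Kcnma1 had 0 UMIs of 102346, and Slc12a2 2. Against 319 CPM in other gland barcodes, Kcnma1 was at least 10.9-fold lower, taking 3 UMIs over the class as the limit that a count of 0 allows (29.3 CPM). Mucin-poor barcodes were shallow, with a median of 1030 UMIs, and all gland barcodes below 2000 UMIs, these included, held Kcnma1 at 87.0 CPM and Slc12a2 at 271 CPM. Against barcodes of like depth the Kcnma1 bound is smaller. Against all other gland barcodes, the Slc12a2 level was 16.4-fold lower (95% counting interval 4.53 to 135). These barcodes held 0.0664% Malat1 and 0.142% mitochondrial RNA, against 2.40% and 3.75% in all gland barcodes. Their part in the result was not tested. In the 2 libraries with enough barcodes, edgeR called 0.343% of 9621 genes higher and 3.13% lower, with both genes among the latter, and DESeq2 called neither (adjusted p = 0.42 for both). The median fitted log2 fold change over all tested genes was -7.16 there.

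In keratinocytes, Aqp3 was higher in the outer layers than in the basal layer, and Slc12a2 was higher in the basal layer. Basal barcodes (2168, with Krt5, Krt14 and Krt15) were compared with keratinized barcodes (274, with Krt76, Krt1 and Krt10) and with soft-mucosa barcodes (419, with Krt4 and Krt13). Besides Aqp3 and Slc12a2, Ano1 could be tested, and the other 4 genes did not pass the filter on low counts.

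Basal barcodes held Aqp3 at 282 CPM in healthy, 305 in metformin, 243 in disease and 348 in disease plus metformin. Keratinized barcodes held 1286, 732, 1338 and 1063 CPM, all above the basal values. The log2 fold change was 2.39 (standard error 0.24, adjusted p = 1.7e-21) where 6.39% of 8626 genes were called higher and 6.46% lower. The fit of this comparison pooled the spread fully over genes, so its p-values do not measure the steadiness of a single gene over the libraries. Soft-mucosa barcodes held 317, 649, 605 and 1117 CPM. Each was above the basal value of its own library, although the healthy value lay within the basal range. The log2 fold change was 1.49 (standard error 0.18, adjusted p = 1.1e-05), and 20.4% of 9430 genes were called higher and 19.5% lower. After thinning to 1000 UMIs, Aqp3 was found in 26.4% of basal, 51.2% of soft-mucosa and 65.5% of keratinized barcodes, and without thinning in 54.2%, 82.4% and 80.6% of the same barcodes. Shallower barcodes left out numbered 643 of 2168, 118 of 419 and 109 of 274. In leukocytes the share was 3.57% after thinning.

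For Slc12a2 the order was reversed. Basal barcodes held 140, 102, 187 and 128 CPM, soft-mucosa barcodes 54.0, 51.5, 47.1 and 72.9 CPM, and keratinized barcodes 11.1, 66.2, 21.02 and 27.7 CPM. All basal values were above all values of the outer layers. The log2 fold change was -0.90 in soft mucosa (standard error 0.17, adjusted p = 0.00069) and -1.39 in the keratinized layer (standard error 0.37, adjusted p = 0.0035). The keratinized call rested on 50 UMIs, of which 40 were in the metformin library, and it was lost without the disease library (adjusted p = 0.090) or the disease plus metformin library (adjusted p = 0.080). The soft-mucosa call was lost with classes from clusters (log2 fold change -0.34, adjusted p = 0.11). Ano1 was called in neither layer. Its log2 fold changes were 1.05 in the keratinized layer (standard error 0.55, adjusted p = 0.22) and 0.46 in soft mucosa (standard error 0.34, adjusted p = 0.30).

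**Figure D3:**
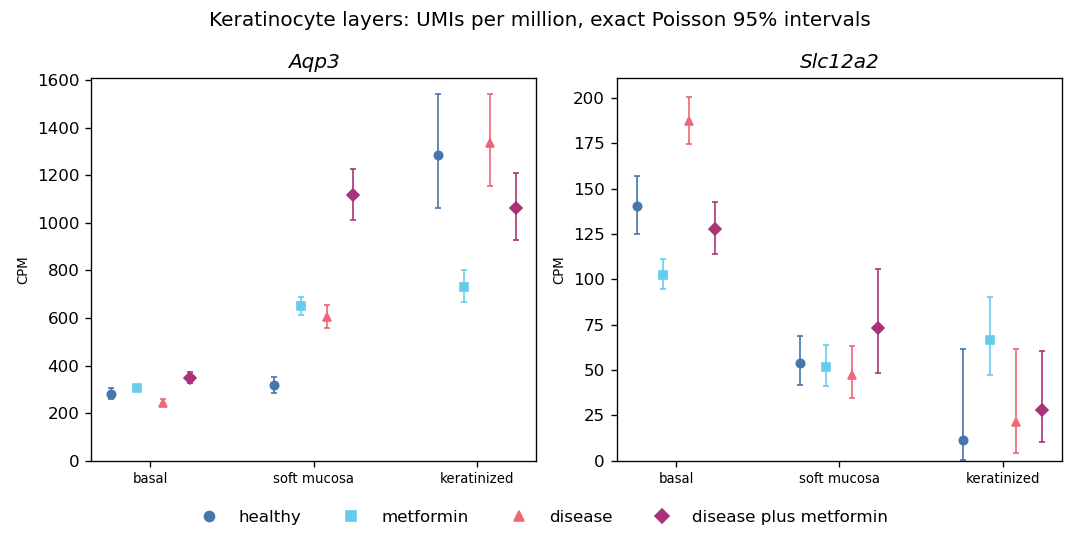
Aqp3 and Slc12a2 in 3 keratinocyte layers, as CPM with exact Poisson 95% intervals and 1 point per library. The keratinized Aqp3 values of 732 to 1338 CPM lie above the basal values of 243 to 348 CPM, and Slc12a2 has the opposite order.

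The depth of a keratinocyte barcode went with both levels. Slc12a2 stood at 33.8, 32.2, 33.3 and 33.9 CPM in barcodes below 2000 UMIs, nearly equal over the healthy, metformin, disease, and disease plus metformin libraries. Barcodes with at least 5000 UMIs held 136, 98.4, 180 and 139 CPM. Aqp3 ran the other way, with 536, 538, 550 and 511 CPM in the shallow and 260, 428, 278 and 481 CPM in the deep barcodes. Malat1 made up 0.114% of UMIs in the shallow and 1.15% in the deep barcodes. The deep barcodes were 680 of 3337 and held 81.6% of the UMIs, so the class sums mostly reflect them. Among clusters made without the 7 genes, 1 basal cluster of 307 barcodes with a median of 20912 UMIs held Slc12a2 in 88.9% of its barcodes, at 178 CPM. The basal clusters with more barcodes (1127, 465 and 355) held 32.8, 18.6 and 26.5 CPM. The part of depth and of nuclear RNA in these differences was not tested. Among barcodes with at least 5000 UMIs only, the soft-mucosa differences were 1.33 for Aqp3 (adjusted p = 5.8e-05) and -1.02 for Slc12a2 (adjusted p = 0.00018). The Aqp3 difference was not of 1 direction there. Soft-mucosa and basal barcodes held 255 and 264 CPM in healthy, 627 and 304 CPM in metformin, and 558 and 209 CPM in disease. Below 2000 UMIs, Slc12a2 stood at 37.9 CPM in basal, 25.1 in soft-mucosa and 30.8 in keratinized barcodes pooled over libraries. There the healthy soft-mucosa value (51.2 against 36.2 CPM in basal) and the disease keratinized value (50.5 against 38.0 CPM) were above basal, so the layer difference of Slc12a2 was small and not of 1 direction in shallow barcodes.

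**Figure D4:**
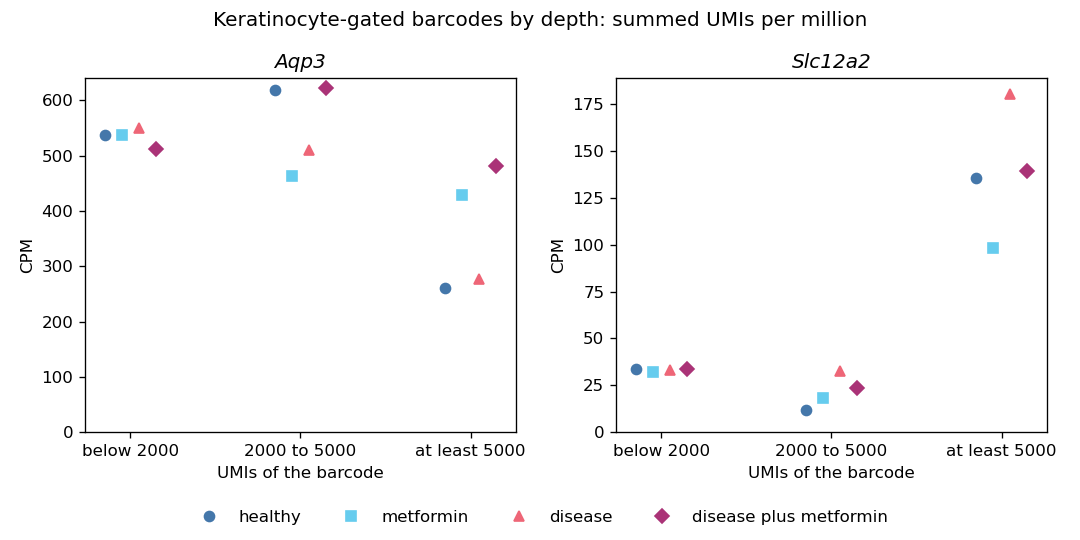
CPM of Aqp3 and Slc12a2 in keratinocyte barcodes split by their total UMIs, with 1 point per library. Slc12a2 is between 32.2 and 33.9 CPM in barcodes below 2000 UMIs and between 98.4 and 180 CPM in those with at least 5000, and Aqp3 is lower in the deep barcodes.

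Other genes of the same transport steps were read from a list of 90 in 9 roles. In gland against keratinocyte barcodes, 55 could be tested, of which 32 were called higher in gland and 16 lower, beside 36.7% and 37.8% of all tested genes. Their median log2 fold change was 1.05, against -0.04 over all tested genes. None of 7 other aquaporins and none of 7 other subunits of large-conductance potassium channels (the beta subunits and the relatives of Lrrc26) passed the filter on low counts. Among potassium channels, 5 of 6 tested were higher in gland and 1 lower. Kcnn4, the intermediate-conductance calcium-activated channel of acinar cells, stood at 200 to 252 CPM in gland and 0.684 to 2.00 CPM in keratinocytes (log2 fold change 7.47, adjusted p = 2.6e-09). Kcnj15, an inward rectifier, was lower in gland at -6.16 (adjusted p = 1.7e-07).

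Secretory calcium signalling had 8 of 15 tested genes higher and 6 lower in gland. The muscarinic receptor genes Chrm1 and Chrm3, which carry the parasympathetic signal for secretion, were higher by 8.35 (adjusted p = 4.4e-08) and 7.05 (adjusted p = 1.9e-07). Of 4 sodium pump genes tested, 3 were higher and 1 lower, led by the beta subunits Atp1b1 at 5.69 and Atp1b3 at -2.58. Chloride and bicarbonate loading had 3 of 9 higher and 4 lower, with the sodium bicarbonate cotransporter Slc4a4 at 3.87 and the potassium chloride cotransporter Slc12a4 at -4.18. Among anion channels 3 of 5 were higher and 2 lower, with Ano10 at 1.72 and Ano9 at -3.77. Of the tight junction list, 9 of 14 were higher and 2 lower, led by Cldn3 at 8.32 and Cldn7 at 6.51, with Cldn1 at -2.15. The ductal sodium transport list had 1 of 2 tested higher, Slc5a8 at 6.37.

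In Ptprn2-rich against other gland barcodes, 44 of the 90 genes were tested, 20 were higher and 7 lower, beside 27.2% and 27.7% of all tested genes. Secretory calcium signalling had 8 of 13 higher and 1 lower. Plcb1, a phospholipase that makes the calcium-releasing messenger, was 1.61 higher (adjusted p = 9.6e-09), and Chrm3 1.51 higher (adjusted p = 1.4e-08), while the calcium entry channel gene Orai1 was lower at -1.25 (adjusted p = 9.5e-05). The potassium channel list had none of 3 higher and 2 lower, so Kcnma1 was not joined by the others tested. Kcnn4 was at -0.12 (standard error 0.13, adjusted p = 0.46). In soft mucosa against basal, 6 of 33 tested genes were higher and 12 lower, beside 20.4% and 19.5% of all tested genes. In keratinized against basal 0 of 29 were higher and 1 lower, Slc12a4 at -3.33 (adjusted p = 0.032), beside 6.39% and 6.46%. The counts of higher genes in soft mucosa and of both directions in the keratinized layer were near or below those shares.

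Between conditions, the summed gland values of Aqp5, Ano1, Slc12a2 and Cldn10 stayed within 1.5-fold of each other in all 4 comparisons, and Kcnma1 and Lrrc26 were highest in the disease plus metformin library. With barcodes thinned to 1000 UMIs, Ano1 (-0.90) and Slc12a2 (-0.69) passed 1.5-fold in disease against healthy, and Slc12a2 also did with equal weights for barcodes (-0.64) or subtypes (-0.64) and with TMM-scaled totals (-0.59). Ratios are given on the log2 scale with a 95% conditional exact interval. A gene counted as measured with at least 20 UMIs over both libraries, and members past 1.5-fold are set against the share of all measured genes past it. The comparisons share libraries and are not independent.

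In disease against healthy gland barcodes, none of 6 measured genes was 1.5-fold apart, where 18.3% of 10650 genes were higher and 4.44% lower by that much. Kcnma1 was at -0.39 (-0.50 to -0.27), Slc12a2 at -0.34 (-0.45 to -0.23) and Lrrc26 at -0.18 (-0.27 to -0.09). Aqp5 was at 0.22 (0.17 to 0.28) and Cldn10 at 0.22 (0.16 to 0.28), but both fell slightly below 0 with TMM-scaled totals. The median over all genes was 0.25 and that of the 6 was -0.11. Secreted products made up 28.9% of gland UMIs in the healthy and 17.0% in the disease library, and without them in the totals Kcnma1 was at -0.61. Within the mucous-type class Slc12a2 was at -0.79 (-0.94 to -0.65), from 220 against 381 CPM, and within the Ptprn2-rich class Kcnma1 was at -0.74 (-0.92 to -0.57), from 577 against 965 CPM. These values were larger than over all gland barcodes.

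In metformin against healthy gland barcodes, 1 of 7 measured genes was higher, Aqp3, where 19.9% of 11077 genes were higher and 3.66% lower. Its ratio of 3.30 (1.62 to 5.65) rested on 33 against 3 UMIs, in 21 of 291 metformin gland barcodes. This library also had the most mixed barcodes (680 of 2477 kept), and its leukocytes held Aqp3 at 37.5 CPM, from 8 UMIs in 6 of 35 barcodes. Leukocytes of the disease library held 37.2 CPM, from 10 UMIs in 2 of 53 barcodes, beside 0.740 CPM in its gland barcodes. A single disease leukocyte barcode held 90% of those 10 UMIs, so the 2 leukocyte values are not alike. The part of mixed barcodes and of this background in the metformin gland value was not tested. Kcnma1 was at -0.48 (-0.58 to -0.37), Cldn10 at 0.31 (0.25 to 0.36), and Slc12a2 at -0.07 (-0.17 to 0.02).

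In disease plus metformin against disease gland barcodes, 2 of 6 measured genes were higher, Kcnma1 and Lrrc26, where 6.68% of 11099 genes were higher and 9.41% lower. Kcnma1 was at 0.82 (0.72 to 0.93), a 1.77-fold difference, and Lrrc26 at 0.68 (0.60 to 0.76), a 1.60-fold difference. The median over all genes was -0.09. Both held within the mucous-type class, with 0.97 (0.82 to 1.12) for Kcnma1 and 0.64 (0.54 to 0.73) for Lrrc26. Within the Ptprn2-rich class they were at 0.73 (0.57 to 0.90) and 1.23 (0.96 to 1.499), and Cldn10 was at 0.68 (0.50 to 0.85). Over the 10 alternatives tried, Kcnma1 ran from 0.67 to 0.92 and Lrrc26 from 0.42, with barcodes thinned to 1000 UMIs, to 0.78. The median depth of the gland barcodes was 3323 UMIs in the disease plus metformin and 13138 in the disease library, and its part was not tested. Among gland barcodes with at least 5000 UMIs, the ratios were 0.83 and 0.70.

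In disease plus metformin against metformin gland barcodes, 1 of 7 genes was higher, Kcnma1 at 0.91 (0.82 to 1.01), and 1 was lower, Aqp3 at -1.55 (-2.56 to -0.60), from 14 against 33 UMIs. Of 11432 measured genes, 5.65% were higher and 10.5% lower. With every subtype weighted equally, Kcnma1 was at 0.34 and Aqp3 turned to 0.46, so neither passed 1.5-fold.

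**Figure D5:**
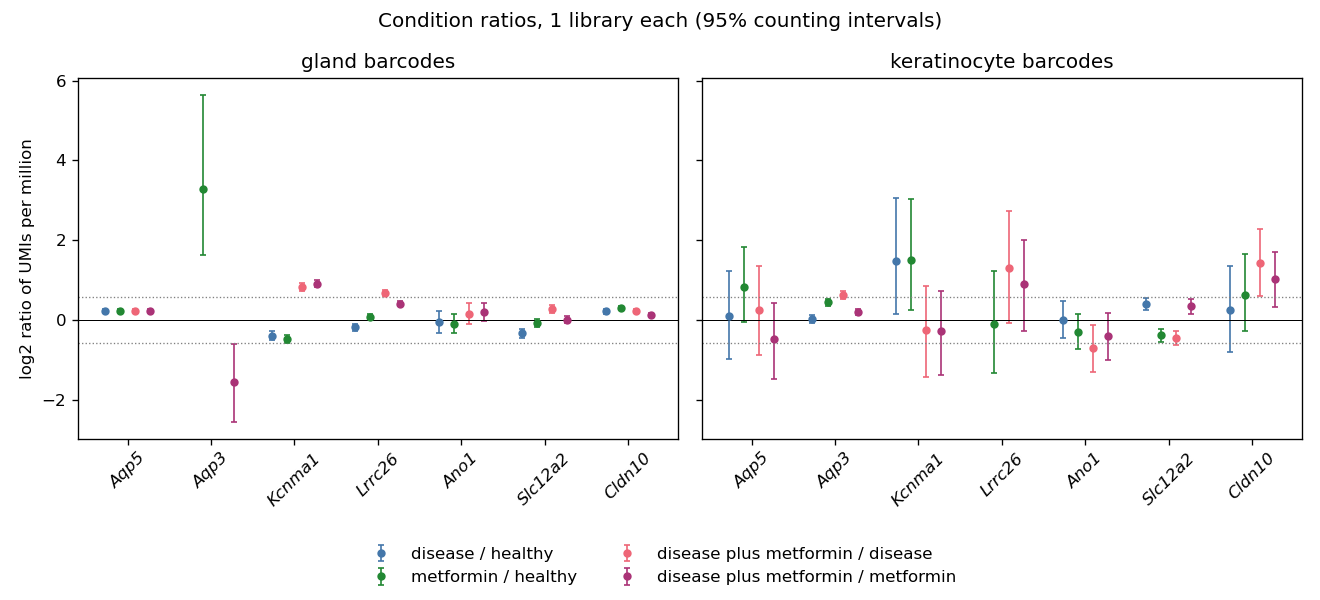
Log2 ratios of CPM for each measured gene in gland and keratinocyte barcodes under 4 comparisons of 1 library each, with 95% counting intervals. Dotted lines mark 1.5-fold. In gland, Kcnma1 and Lrrc26 lie above 1.5-fold in disease plus metformin against disease, and the wide keratinocyte intervals belong to genes with few UMIs.

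In keratinocytes the genes with enough UMIs for a narrow interval were Aqp3, Slc12a2 and Ano1. In disease against healthy, Aqp3 was at 0.03 (-0.07 to 0.13) and Slc12a2 at 0.40 (0.25 to 0.56). Of 6 measured genes 1, Kcnma1, passed 1.5-fold, at 1.49 (0.16 to 3.07) from 24 against 6 UMIs, where 8.26% of 11588 genes were higher and 5.38% lower. In metformin against healthy, Aqp3 was at 0.45 (0.36 to 0.53) and Slc12a2 at -0.39 (-0.55 to -0.22). Both turned with barcodes thinned to 1000 UMIs, to -0.13 and 0.34. Of 7 genes, 3 (Aqp5, Kcnma1 and Cldn10) were higher, with at most 53 UMIs in a library, where 6.23% of 11973 genes were higher and 16.4% lower. In that comparison the Aqp5 and Cldn10 intervals held 0.

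In disease plus metformin against disease keratinocytes, Aqp3 was at 0.62 (0.53 to 0.72), a 1.54-fold difference, and Slc12a2 at -0.45 (-0.62 to -0.27). Aqp3 had 505 against 328 CPM, Cldn10 9.44 against 3.51 CPM and Lrrc26 3.54 against 1.44 CPM. The Cldn10 values rested on 32 against 22 UMIs and the Lrrc26 values on only 12 against 9. Ano1 was lower, with 9.73 against 15.8 CPM, at -0.70 (-1.31 to -0.12). Thus 3 of 7 were higher and 1 lower, where 3.60% of 11410 genes were higher and 12.6% lower. No gene passed 1.5-fold after thinning to 1000 UMIs. Within the layers, Aqp3 was at 0.51 (0.38 to 0.65) in basal, 0.88 (0.70 to 1.07) in soft-mucosa and -0.33 (-0.62 to -0.05) in keratinized barcodes. In disease plus metformin against metformin, Lrrc26 and Cldn10 were higher, 2 of 7, where 7.74% of 11809 genes were higher and 7.62% lower. Lrrc26 stood at 3.54 against 1.90 CPM, from 12 against 19 UMIs, and Cldn10 at 9.44 against 4.60 CPM, from 32 against 46. Aqp3 was at 0.21 (0.13 to 0.29) and Slc12a2 at 0.34 (0.16 to 0.52).

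Across 44 sums of a class in a library, with at least 20 barcodes each, the genes most alike to each of the 7 were sought among 13969 genes, by Pearson's r of log2(CPM + 10). The sums share libraries and depth, and r is a description only. Aqp5 was followed most closely by Lman1l (r = 0.984), Cldn10 (0.980) and Chst5 (0.978). For Cldn10 the closest were Cgref1 (0.983), Oit1 (0.982) and Prr15l (0.981), and for Lrrc26 Tspan1 (0.989), Prr15l (0.981) and Cldn7 (0.980). Lrrc26 and Cldn10 had r = 0.979 with each other, while Lrrc26 and Kcnma1, which meet in 1 channel, had r = 0.710.

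The other 4 genes had looser or different companions. Kcnma1 was followed by Shroom3 (0.943), Tc2n (0.941) and Sidt1 (0.939), and Slc12a2 by Clstn1 (0.919), Arhgef28 (0.906) and Ptprk (0.875). Ano1 had Wwc1 (0.911), Myo5b (0.840) and Liph (0.837). Aqp3 was followed by Lypd3 (0.966), Mt4 (0.961) and Gm94 (0.959). Lypd3, a surface protein of suprabasal keratinocytes, stood at 43.7 to 51.6 CPM in basal, 142 to 265 CPM in soft-mucosa and 179 to 222 CPM in keratinized barcodes, an order like that of Aqp3 between basal and outer layers. With the other 6 genes Aqp3 had r between -0.67 and -0.26.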

How the data were processed

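Raw UMI counts per gene and barcode were deposited by the authors as filtered matrices, 1 per library. Per the submitters' processing notes they came from Cell Ranger 7.0.1 and bcl2fastq with the mm10 build, and whether introns were counted is not given in the sources used here. Kept barcodes had 200 or more genes detected and no more than 20% of UMIs from mitochondrial genes. Classes, gland subtypes and keratinocyte layers were gated on UMI shares of 20 marker lists without the 7 genes, with gate limits set after the marker distributions were seen. The members and lists were chosen with earlier results of these data known. Counts summed by class and library (at least 20 barcodes) were tested with edgeR 4.0.16 in R 4.3.3, with library as block and Benjamini-Hochberg adjustment over all genes tested at a threshold of 0.05. The script was tested on simulated data. Whether samples were separate animals is not given, so p-values measure at most the spread between these libraries. In the keratinized and mucin-poor comparisons that spread was pooled fully over genes and is not that of a single gene. Ratios between conditions have conditional exact binomial intervals, with a 0 set to 3 UMIs. Promoter windows are RefSeq's (GRCm38.p6), and gene positions and lengths come from GENCODE M21 (32123 of 32245 symbols matched). Named pathway genes are the 2 with the largest change in each direction within a role. Alternatives were another count test (DESeq2 1.42.0), other filters, gates and weightings, and Leiden clusters (scanpy 1.11.5).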

Additional observations from a re-analysis of the deposited data

Results flagged for a closer look

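Summed over gland barcodes, Kcnma1 went opposite ways under metformin in the 2 backgrounds. Its log2 ratio was -0.48 in metformin against healthy and 0.82 in disease plus metformin against disease, from 229 against 319 CPM and 431 against 244 CPM. With 1 library in each group, the difference was not tested. Outside the Ptprn2-rich class, disease and disease plus metformin held 56.2 and 145 CPM below 1% Malat1. They held 193 and 330 CPM from 1 to 3%, and 236 and 675 CPM at 3% or more. The ratio of the 2 ratios was 1.30 on the log2 scale, with a counting interval of 1.15 to 1.45. At like Malat1 share the lower metformin value was not steady outside the Ptprn2-rich class. Kcnma1 there stood at 75.4 CPM in healthy and 141 in metformin below 1% Malat1. It stood at 213 and 202 CPM from 1 to 3%, and at 342 and 325 CPM at 3% or more. Ptprn2-rich barcodes with at least 3% held 1006 and 688 CPM. Ptprn2-rich barcodes were 70 of 348 in healthy and 29 of 291 in metformin. The part of RNA content and subtype shares was not tested.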

How the results depend on the processing

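The gland and keratinocyte comparison gave 6 genes higher and 1 lower under all 13 alternatives. In mucous-type barcodes, stricter gates left 0 genes called higher and 1 lower, and turned Ano1 to 0.17, Aqp5 to -0.19, Cldn10 to -0.14, Lrrc26 to -0.35 and Slc12a2 to 0.25. DESeq2 called 1 gene lower there and 0 lower in mucin-poor barcodes. In Ptprn2-rich barcodes, stricter gates and the lack of a low-count filter each left 1 gene called higher. Clusters in place of gates gave 1 gene called lower in serous-type and 0 lower in soft-mucosa barcodes. Without single libraries, genes called lower in keratinized barcodes ran from 0 to 1.

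Genes at least 1.5-fold apart in gland between disease and healthy (0 as reported) numbered 3 with every barcode weighted equally, 2 with TMM-scaled totals, with subtypes weighted equally or with thinning to 1000 UMIs, and 1 without secreted products. Aqp5 and Cldn10 turned to -0.035 and -0.040 with TMM-scaled totals, and to -0.000207 and -0.00579 without secreted products. Between metformin and healthy gland barcodes, equal barcode weights, TMM-scaled totals and leaving out secreted products each gave 2 genes. Lrrc26 then stood at -0.34, -0.17 and -0.13, and at -0.00533 with clusters, and Aqp5 at -0.019 with TMM-scaled totals. Between disease plus metformin and disease, thinning gave 1 gene, with Cldn10 at -0.00259, and equal barcode weights gave -0.22 for Aqp5 and -0.13 for Cldn10. Against metformin, equal subtype weights gave 0 genes, with Aqp3 at 0.46, thinning gave 1, with Cldn10 at -0.028, and equal barcode weights gave -0.034 for Aqp5.

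In keratinocytes, disease against healthy gave 2 genes with clusters or equal barcode weights (Kcnma1 at -1.06 with the latter) and 3 with equal layer weights. For metformin against healthy, equal barcode weights turned Aqp3 to -0.00744 and Kcnma1 to -1.001, and thinning gave 0 genes, Aqp3 at -0.13 and Slc12a2 at 0.34. Disease plus metformin against disease gave 1 gene among barcodes with Malat1 and mitochondrial RNA, 2 with stricter gates or at least 5000 UMIs, and 0 with thinning. Against metformin, 1 gene remained past 1.5-fold with the stricter barcode filter or where both these RNAs were present, 4 with equal barcode or layer weights, and 0 with thinning. Cldn10 then stood at -0.45 where both RNAs were present and at -0.57 with at least 5000 UMIs. The cause of these changes was not tested.

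No paired analysis was possible because each condition has 1 library. The alternatives with at least 5000 UMIs and without secreted products were chosen after seeing the data. Some alternatives could not be fitted for serous-type, mucin-poor and keratinized barcodes, which had too few barcodes. Depth limits every statement on Aqp3 in gland and on Aqp5, Kcnma1, Lrrc26 and Cldn10 in keratinocytes.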
